A study of Homo sapiens with 9 samples.

Results

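This comparison set 3 RNA-seq libraries of cells overexpressing full-length NFE2L1 against 3 libraries of cells overexpressing NFE2L1DC, 6 of the 9 libraries of the study. The libraries were chosen by the genotype in their labels. Of 58174 genes in the expression table, 13689 were at 1 TPM or more in 3 or more of the 6 libraries and were tested. TPM is a relative abundance, corrected for transcript length and scaled to the same total in every library.

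The study asked, by its title, about an activity of NFE2L1 that does not depend on transcription. Its cells are labelled HepG2, a human line from a liver tumour, grown in high-glucose DMEM with 10% FBS. The full-length group was labelled NFE2L1 overexpression and the other NFE2L1DC overexpression; in the protocol the D is a Greek delta, by convention a deletion at the C-terminal end, and the sources used here do not give its extent. The 3 control libraries, labelled WT and named in the protocol after the pLVX vector, gave a reference level only and did not enter the fit. Each form is represented by 1 overexpressing line, and the labels do not say whether that line is a clone or a pool, or whether replicates were separate cultures. The form of NFE2L1 and the line that carries it can therefore not be told apart, and the p-values rest on the spread among these libraries alone.

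NFE2L1 (also called NRF1 or TCF11) belongs to the cap'n'collar transcription factors. It is made as a protein of the endoplasmic reticulum membrane, from which it is extracted, trimmed and passed to the nucleus. There it pairs with small MAF proteins and binds antioxidant response elements, and it is best known for raising proteasome genes when proteasome activity is low. The domain that binds DNA and pairs with small MAF proteins lies toward the C-terminal end of the protein.

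Before the comparison, the label of the cells was checked against defining liver genes, and most of them went against it. All 10 hepatic markers examined stayed under 1 TPM in all 9 libraries, with 0.7509 TPM as the highest value. ALB, APOB, TTR, SERPINA1 and FGB, which encode major liver plasma proteins, were listed at 0 in every library. AFP, the fetal liver protein that HepG2 cells are known to secrete, reached at most 0.2376 TPM. Of the 5 hepatoblastoma or fetal liver markers examined, 4 stayed under 1 TPM in all 9 libraries. The fifth, H19, went the other way, at 282 to 529 TPM. Zeros from failed estimates were not seen among 106 proteasome, ribosomal protein and mitochondrially encoded genes, whose lowest value was 7.484 TPM. The urea cycle enzyme CPS1 was abundant all the same, at 726 to 1192 TPM, as was the tyrosine breakdown enzyme HPD, at 289 to 585 TPM. KRT7, a keratin of bile duct and other simple epithelia, was at 488 to 958 TPM. The other 3 of the 4 bile duct markers examined (KRT19, SOX9 and CFTR) stayed under 1 TPM in all 9 libraries. COL3A1, a fibrillar collagen, was at 61.3 to 114 TPM. Of the 7 fibroblast or stellate markers, COL3A1 among them, 5 reached 1 TPM in some library and 2 (LUM and THY1) in none. The text below therefore speaks of the cells labelled HepG2 and gives them no other name. Of 8 leukocyte markers, 6 (PTPRC among them) were listed at 0 throughout, and CSF1R, a receptor of macrophages and some other cells, was at 1.66 to 4.15 TPM. Its level made up most of their summed 1.91 to 4.33 TPM. The 5 endothelial markers summed to 0.138 to 0.671 TPM. No marker of any of the 8 cell types examined was called between the 2 forms.

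The sequencing depth behind the values is unknown. Between 13350 and 13714 genes reached 1 TPM in each of the 6 libraries, and mitochondrially encoded genes took 15.3 to 17.7% of TPM in the NFE2L1 libraries and 17.0 to 17.7% in the NFE2L1DC libraries (exact permutation test, 2-sided p = 0.4, where 3 against 3 cannot go below 0.1). On a principal component analysis of the 6 libraries, the first component (31.3% of the variance) separated the forms, with the NFE2L1 libraries at -18.2 to -12.8 and the NFE2L1DC libraries at 4, 20.9 and 21.6. The second (20.4%) set NFE2L1DC replicate 1 apart, at 29.3 against -11.9 to -3.4 for the other libraries. Without that library as many genes were called, 116, of which 88 were among those called with it.

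Full-length NFE2L1 and NFE2L1DC differed in a small set of genes, nearly all higher with the full-length form. In limma's moderated test on log2(TPM + 1) with Benjamini-Hochberg adjustment, 116 of 13689 genes passed an adjusted p of 0.05 (0.847%) and are referred to as called. Of these, 105 were higher in NFE2L1 cells (0.767% of genes tested) and 11 lower (0.0804%). These shares are the reference for the count of called genes in every list below. Among the 105, 12 reached 1 TPM only in NFE2L1 libraries and so had to differ to be tested. The difference reached 1 on the log2 scale for 53 of the higher and 5 of the lower genes. Of the 116, 113 were protein-coding, and in none did the libraries of the 2 forms overlap. Across all tested genes the median log2 difference was 0.06. For comparison, the 3 NFE2L1 libraries all lay above the 3 NFE2L1DC libraries in 12.6% of tested genes, and all below in 5.57%.

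Heme oxygenase 1 and several interferon-induced genes lay at the upper end. The plot of all tested genes sets their differences against their abundance.

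**Figure D1:**
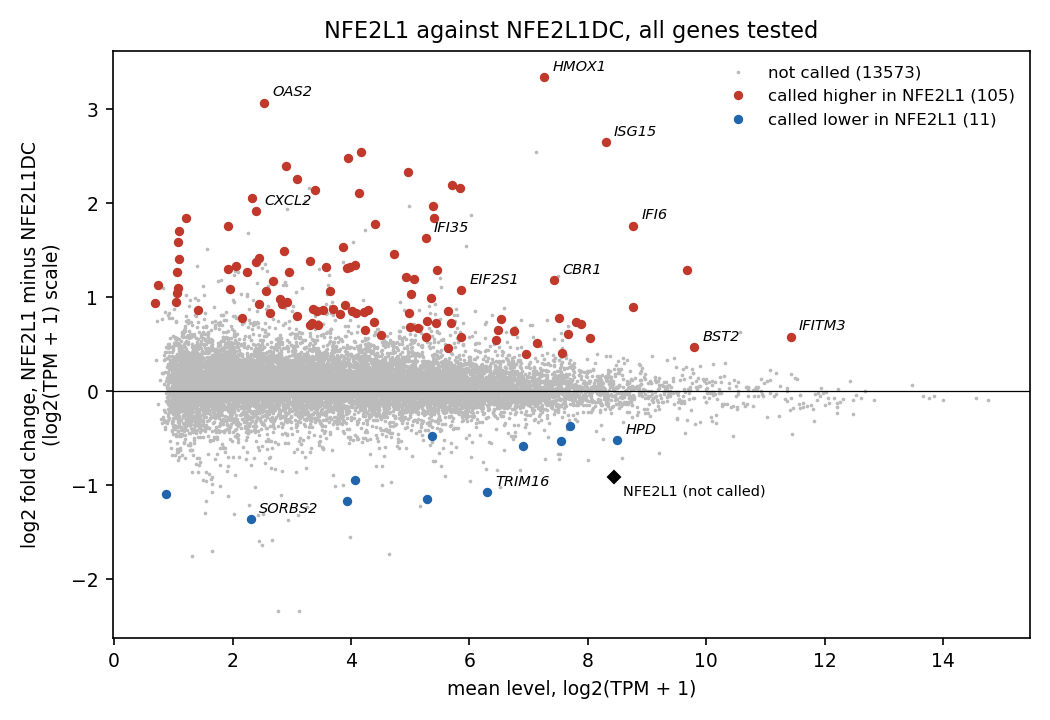
Log2 difference between NFE2L1 and NFE2L1DC (vertical axis, fitted on log2(TPM + 1)) against the mean level of the 2 forms (horizontal axis, log2(TPM + 1)) for all 13689 tested genes, 1 point per gene. Called genes are coloured: 105 lie above 0 and 11 below, HMOX1 stands highest at 3.34, and most grey points sit close to the median of 0.06.

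How far the calls rest on single libraries was measured by leaving out each of the 6 in turn. Between 47 and 116 genes were then called, and 38 of the 116 (37 higher and TRIM16, lower) stayed called whichever library was left out. These 38 are named below as kept. For the other 78, the highest adjusted p with 1 library left out lay between 0.0518 and 0.218 in limma's test, and the fitted direction did not change. The number called was 47, 58 and 53 without NFE2L1 replicate 1, 2 or 3, and 66 without NFE2L1DC replicate 2 or 3.

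NFE2L1 itself was measured first, as the check of the labels. Its 3 libraries under the full-length label held 207, 181 and 354 TPM, those under the NFE2L1DC label 445, 427 and 472 TPM, and the controls 104, 81.7 and 64.0 TPM. Every overexpressing library lay above every control library, and every NFE2L1DC library above every full-length one. The means were 247 ± 93.5 TPM and 448 ± 22.9 TPM (SD, n = 3 each), a log2 difference of -0.92 (SE 0.22) that did not pass in limma (adjusted p = 0.18). Replicate 3 of the full-length form stood highest in its group. Without it the difference was -1.21 and passed (limma adjusted p = 0.00504). Genes reported below as higher with the full-length form thus rose in the line whose libraries read lower for NFE2L1. One value per gene does not separate the introduced sequence from the resident gene, and amount and form cannot be told apart.

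No gene of the list of NFE2L1, its relatives and its partners was called (9 of 10 tested). NFE2L2 (NRF2, the close relative that drives antioxidant genes) stood at 20.6 ± 5.70 against 15.1 ± 1.70 TPM (n = 3 each; log2 difference 0.40, limma adjusted p = 0.506). KEAP1, which marks NFE2L2 protein for destruction, stood at 57.4 ± 3.98 against 57.5 ± 3.60 TPM. BACH1, a repressor that occupies antioxidant response elements and is released by heme, differed by 0.15 (limma adjusted p = 0.804). NFE2L3 was at 2.77, 3.42 and 3.73 against 4.19, 2.13 and 2.42 TPM, overlapping between the forms. Among the small MAF partners, MAFG scattered widely within both groups, from 12.4 to 36.5 TPM and from 8.52 to 33.0 TPM. BACH2 was under 0.02 TPM and was not tested.

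HMOX1 showed the largest difference on the log2(TPM + 1) scale and the smallest adjusted p. As a ratio of mean TPM some low-level genes differed more, among them OAS2 (39.5-fold) and HSH2D (12.2-fold). HMOX1 encodes heme oxygenase 1, the inducible enzyme that breaks heme into iron, carbon monoxide and biliverdin. The gene is a textbook target of antioxidant response elements. The gene (ENSG00000100292) lies on chromosome 22 at 35380361 to 35394214 (GRCh38). The NFE2L1 libraries held 262, 288 and 287 TPM, the NFE2L1DC libraries 23.8, 28.1 and 28.3 TPM and the controls 35.02, 43.8 and 29.8 TPM. NFE2L1 libraries were all far above the controls, while the NFE2L1DC libraries all lay below the lowest control. The means of 279 ± 14.6 and 26.7 ± 2.55 TPM (SD, n = 3 each) differed 10.4-fold (log2 difference 3.34, SE 0.09, limma adjusted p = 1.53e-05), and the call was kept. In bulk RNA, a higher level in every cell and a larger share of cells with the transcript cannot be told apart.

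The rest of heme metabolism was not called. Of 14 tested genes for heme synthesis, breakdown and transport, HMOX1 was the 1 called, and the list's median was 0.08. HMOX2, the constitutive heme oxygenase, was at 65.3, 69.9 and 72.3 against 83.4, 54.5 and 65.7 TPM. BLVRB, a biliverdin reductase, was at 139, 164 and 158 against 148, 138 and 126 TPM. Both overlapped between the forms. ALAS1, the first enzyme of heme synthesis, was at 104, 99.8 and 106 against 84.2, 89.2 and 96.7 TPM (log2 difference 0.20, limma adjusted p = 0.395). The 11 tested iron uptake, storage and export genes and the 6 tested metallothionein genes gave no call, with medians of 0.10 and 0.12. FTL, the ferritin light chain, stood at 7051 ± 92.9 and 7524 ± 555 TPM (n = 3 each).

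Of 28 tested antioxidant response element genes, 2 were called higher and none lower, with a median of 0.11. The NFE2L1 libraries all lay above the NFE2L1DC libraries in 9 of the 28 and all below in 6. Over all tested genes these shares were 12.6% and 5.57%. CBR1, a carbonyl reductase, held 239, 237 and 235 TPM in NFE2L1, 79.3, 139 and 102 TPM in NFE2L1DC and 218, 220 and 222 TPM in control libraries. The NFE2L1DC libraries all lay below the controls, and the NFE2L1 libraries lay above them by a smaller step. Its log2 difference was 1.18 (SE 0.18, limma adjusted p = 0.0354). AKR1B10, an aldo-keto reductase, was at 2.13, 1.77 and 1.75 against 0.553, 0.191 and 0.299 TPM (log2 difference 1.10, limma adjusted p = 0.0314), and passed the filter only through the NFE2L1 libraries. Neither call was kept: CBR1 lost it without NFE2L1DC replicate 3 or any NFE2L1 replicate, and AKR1B10 without any library but NFE2L1DC replicate 1, each with an adjusted p of up to 0.142. NQO1, the standard reporter of this response, overlapped, at 342, 311 and 458 against 363, 464 and 384 TPM. GCLM, a subunit of the enzyme that limits glutathione synthesis, was at 14.8, 13.7 and 13.1 against 11.2, 6.97 and 9.06 TPM and was not called (limma adjusted p = 0.235). GSTM3, a glutathione transferase, had the lowest value of the list, -0.72 (limma adjusted p = 0.145).

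Proteasome genes, the best-known targets of NFE2L1, were not called between the forms. None of 33 tested subunit genes passed in limma, and the smallest adjusted p was 0.102. With 0.847% of all tested genes called, no call among 33 genes is near that share. Differences ran from -0.13 to 0.52 with a median of 0.11, positive in 27 of 33, beside 8663 of all 13689 tested genes. The 3 NFE2L1 libraries all lay above the NFE2L1DC libraries for 6 subunits and all below for 1. Over all tested genes these shares were 12.6% and 5.57%. PSMD7, a lid subunit, was at 125, 118 and 106 against 87.7, 84.4 and 70.7 TPM and control means of 74.8 TPM (log2 difference 0.52). PSMB4, the most abundant, was at 659 ± 24.9 against 633 ± 26.2 TPM (n = 3 each). The 9 assembly chaperones and the 14 genes for release and turnover of NFE2L1 protein gave no call, with medians of 0.14 and 0.18. PSMG1, an assembly chaperone, was at 218, 218 and 224 against 167, 162 and 190 TPM (log2 difference 0.35, limma adjusted p = 0.133).

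Interferon-linked genes made up 43 of the 105 higher genes. Interferons are cytokines that bind surface receptors, and the type I and type III receptors act through JAK kinases on STAT proteins and IRF9. Together these form a complex that binds the interferon-stimulated response element and switches on antiviral genes. Over 7 lists covering signalling, sensors, antiviral effectors, other induced genes, ISG15 conjugation, class I presentation and the immunoproteasome, 88 of 110 genes were tested, 43 were higher in NFE2L1 cells and none lower, beside 0.767% of all tested genes higher. The median log2 difference of the 88 was 0.68 against 0.06 for all tested genes, and 83 were positive, beside 8663 of all 13689 tested. In 66 the NFE2L1 libraries all lay above the NFE2L1DC libraries, beside 12.6% of all tested genes. Of the 43, DDX58, OAS2, MX2, RSAD2 and IFI44L reached 1 TPM only in NFE2L1 libraries, so they passed the filter through the group where they are high. Without these 5, 38 of 83 were higher and the median was 0.65. Leaving out 1 library brought the 43 to 25, 24 and 24 (NFE2L1 replicates 1, 2 and 3) and to 35, 27 and 27 (NFE2L1DC replicates 1, 2 and 3); 22 of the 43 were kept. The lists were drawn up with earlier results of these data known.

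**Figure D2:**
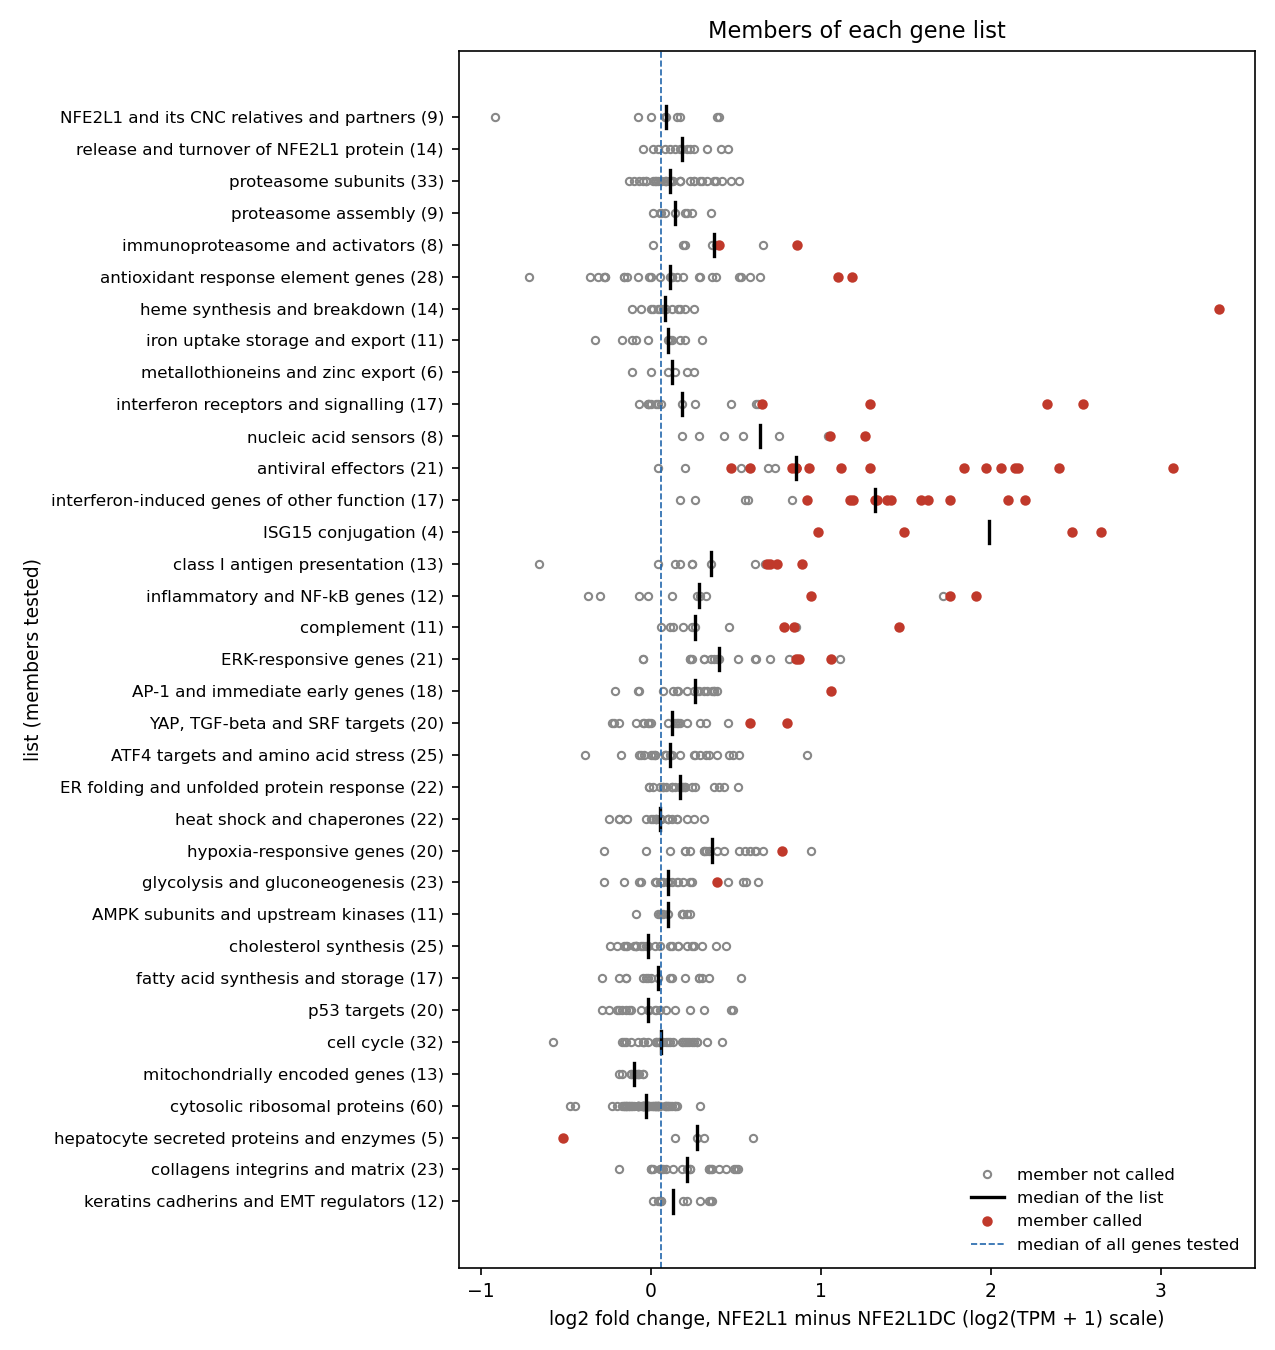
Log2 difference between NFE2L1 and NFE2L1DC (horizontal axis, log2(TPM + 1) scale) of every tested member of each gene list (rows, with the number tested). Filled points are called members, open points members not called, black bars list medians and the dashed line the median of all genes at 0.06; ISG15 conjugation lies farthest right with a median of 1.99, and no member is called in the lists of proteasome subunits, ribosomal proteins or cell cycle genes.

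The promoters of 5 of these genes are shown as examples, not drawn by a rule. In each, the short motif read by the STAT and IRF complex was found more than once. Other called genes of the lists, such as IFIT1, IFI44L and IFIH1, also held it more than once and are not shown. It was not found in UBE2L6, IRF9, OAS1, HELZ2 or IFI35, which also had large rises. Sequences are the 250 bases before the RefSeq start site, read on the gene's strand (RefSeq, GRCh38.p14). Capitals mark the interferon-stimulated response element core, GAAANNGAAA, and in IFI27 also 1 antioxidant response element core, TGACNNNGC, which was searched too; both were searched on both strands, so that the first also appears as its reverse complement. The regions are chr1:1013247-1013496 (plus strand) for ISG15, chr1:27672193-27672442 (minus strand) for IFI6, chr14:94110486-94110735 (plus strand) for IFI27, chr10:89327747-89327996 (plus strand) for IFIT3 and chr12:112938224-112938473 (plus strand) for OAS3.
ISG15: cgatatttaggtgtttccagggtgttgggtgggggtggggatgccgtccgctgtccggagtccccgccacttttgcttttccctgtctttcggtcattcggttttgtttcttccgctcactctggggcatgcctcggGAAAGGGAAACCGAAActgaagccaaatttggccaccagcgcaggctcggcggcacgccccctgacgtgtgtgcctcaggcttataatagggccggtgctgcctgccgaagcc
IFI6: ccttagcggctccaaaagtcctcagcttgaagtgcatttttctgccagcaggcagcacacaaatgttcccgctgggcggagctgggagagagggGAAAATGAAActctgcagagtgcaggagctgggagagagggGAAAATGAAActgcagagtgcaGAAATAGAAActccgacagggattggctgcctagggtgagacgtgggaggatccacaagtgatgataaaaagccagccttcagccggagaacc
IFI27: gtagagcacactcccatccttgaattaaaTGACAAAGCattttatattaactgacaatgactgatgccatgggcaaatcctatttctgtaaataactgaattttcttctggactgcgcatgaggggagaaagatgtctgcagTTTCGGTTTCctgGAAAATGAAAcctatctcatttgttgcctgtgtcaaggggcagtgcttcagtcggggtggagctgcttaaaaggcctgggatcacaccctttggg
IFIT3: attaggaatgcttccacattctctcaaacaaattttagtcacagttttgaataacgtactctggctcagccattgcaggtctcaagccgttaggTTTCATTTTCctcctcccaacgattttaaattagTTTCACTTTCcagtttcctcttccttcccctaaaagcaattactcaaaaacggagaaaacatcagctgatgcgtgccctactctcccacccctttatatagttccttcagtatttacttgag
OAS3: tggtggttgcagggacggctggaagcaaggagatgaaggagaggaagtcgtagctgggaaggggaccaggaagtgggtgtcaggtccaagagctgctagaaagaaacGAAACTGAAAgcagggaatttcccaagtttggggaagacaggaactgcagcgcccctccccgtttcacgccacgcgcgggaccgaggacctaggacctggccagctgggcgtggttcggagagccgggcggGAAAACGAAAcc
In ISG15 the 2 matches share bases. IFI6 held 3 matches and each of the others 2. A match is a string of letters and not evidence of binding.

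The same search was made for every called gene with an entry. The interferon motif was present in 15 of 34 promoters (44.1%) of the called genes of the 7 lists, in 2 of 41 (4.88%) of the other higher genes, in 1 of 7 (14.3%) of the lower genes and in 199 of 9145 (2.18%) of tested genes. Over all 27305 RefSeq promoters of this length it was present in 3.07%. The 7 lists were made of interferon-linked genes, and the share among their members not called was not computed. The 44.1% therefore describes the lists and does not bear on the difference between the forms. The antioxidant motif was present in 11 of 75 promoters (14.7%) of higher genes, in 7 of 34 (20.6%) of those in the 7 lists and 4 of 41 (9.76%) of the others, and in 3 of 7 (42.9%) of the lower genes, against 12.3% of tested genes and 11% of all promoters. HMOX1 had no entry. Where RefSeq lists several start sites for a gene, the first entry was used.

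The transcription factors IRF7 and IRF9 of interferon signalling rose, and no receptor gene was called. IRF7 (ENSG00000185507, chromosome 11), a factor that amplifies interferon responses, held 32.8, 27.0 and 29.6 TPM in NFE2L1 and 5.02, 3.89 and 4.01 TPM in NFE2L1DC libraries, beside 4.60, 4.85 and 5.60 TPM in controls. The NFE2L1DC libraries overlapped the controls and the NFE2L1 libraries stood well clear of both (log2 difference 2.54, SE 0.13, limma adjusted p = 0.000197). IRF9, the DNA-binding partner of the STAT proteins, was at 62.6, 54.9 and 36.3 against 8.20, 7.27 and 12.6 TPM, with controls at 9.88, 13.6 and 8.83 TPM (log2 difference 2.33, SE 0.25, limma adjusted p = 0.00834). Here too the NFE2L1 libraries stood above every other library. Both calls were kept. USP18, which removes ISG15 from proteins and dampens receptor signalling, rose by a smaller step, 22.04 ± 2.00 against 13.7 ± 0.638 TPM (n = 3 each; log2 difference 0.65, limma adjusted p = 0.0408), and its call was lost whichever library was left out.

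Of the 17 tested signalling genes 4 were called, IRF7, IRF9 and USP18 among them, and the median was 0.18. STAT2 was at 30.1, 30.8 and 27.1 against 23.4, 15.2 and 18.4 TPM, without overlap, but did not pass (log2 difference 0.62, limma adjusted p = 0.183). IRF1 did not pass either (0.63, adjusted p = 0.336). IRF3, the factor activated by nucleic acid sensors, differed by 0.03. The receptor chains IFNAR1, IFNAR2, IFNGR2, IFNLR1 and IL10RB lay between -0.02 and 0.06, all with overlapping libraries, and IFNGR1 at 0.47 (limma adjusted p = 0.271). The interferon genes themselves were at or near 0. None of the 9 examined was tested: IFNB1 read 0.108 TPM in NFE2L1 replicate 3 and IFNL2 0.115 TPM in NFE2L1 replicate 2, each 0 in the other overexpressing libraries, while IFNE stayed under 0.1 TPM in them. IFNA1, IFNA2, IFNG, IFNK, IFNL1 and IFNL3 were listed at 0 in all 6.

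ISG15 and its conjugation enzymes had the highest median of any list, 1.99, and all 4 tested members were called. ISG15 is a ubiquitin-like protein that is attached to other proteins during interferon responses. The ISG15 gene (ENSG00000187608, chromosome 1) held 508, 582 and 540 TPM in NFE2L1, 75.7, 90.8 and 91.4 TPM in NFE2L1DC and 38.2, 41.7 and 33.7 TPM in control libraries. The 3 groups stood apart in that order, without overlap. NFE2L1 exceeded NFE2L1DC 6.32-fold (log2 difference 2.65, SE 0.09, limma adjusted p = 3.64e-05). UBE2L6, the conjugating enzyme for ISG15, was at 24.9, 27.1 and 23.9 against 3.51, 4.24 and 3.37 TPM, with controls at 1.71, 2.61 and 2.03 TPM (log2 difference 2.48, SE 0.12, limma adjusted p = 0.000185). The ligase HERC5 differed by 0.98 (limma adjusted p = 0.0164) and its neighbour HERC6 by 1.49 (limma adjusted p = 0.00672). ISG15, UBE2L6 and HERC6 were kept, and HERC5 was lost without any library but NFE2L1DC replicate 1. UBA7, the activating enzyme, missed the filter at 1.57, 1.22 and 0.954 against 0.383, 0.0324 and 0.0940 TPM.

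Antiviral effectors gave the most calls of any list: 15 of 21 tested genes were higher, none was lower, and the median was 0.85. Without OAS2, MX2 and RSAD2, which passed the filter only through the NFE2L1 libraries, 12 of 18 were higher. The oligoadenylate synthetases make a signalling nucleotide when viral-type RNA is present. OAS1 was at 86.5, 89.2 and 103 against 22.3, 17.9 and 19.97 TPM, with controls at 8.30, 10.9 and 8.07 TPM (log2 difference 2.16, SE 0.11, limma adjusted p = 0.000197). OAS3 was at 67.0, 68.0 and 60.2 against 17.2, 16.8 and 18.2 TPM, with controls at 11.9, 9.76 and 11.7 TPM (log2 difference 1.84, SE 0.09, limma adjusted p = 0.000185). OAS2 was at 9.80, 9.47 and 8.57 against 0.130, 0.0853 and 0.491 TPM (log2 difference 3.07, limma adjusted p = 0.000234). In all 3 genes the NFE2L1DC libraries lay between the controls and the NFE2L1 libraries. The related OASL was at 58.7, 72.4 and 65.0 against 14.1, 13.6 and 20.9 TPM (log2 difference 1.97, limma adjusted p = 0.00338).

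The IFIT proteins bind foreign RNA ends, and the IFITM proteins hinder the entry of viruses through membranes. IFIT3 was at 10.3, 12.8 and 11.5 against 1.65, 1.46 and 1.04 TPM, with controls at 0.283, 0.554 and 1.05 TPM (log2 difference 2.40, SE 0.15, limma adjusted p = 0.000571). IFIT1 followed at 16.2 ± 1.59 against 2.94 ± 0.737 TPM (n = 3 each; log2 difference 2.14, limma adjusted p = 0.00218), and IFIT2 at 7.14 ± 0.471 against 0.966 ± 0.295 TPM (n = 3 each; 2.06, limma adjusted p = 0.00190). NFE2L1DC libraries overlapped the controls in all 3. IFITM1 was at 1220, 1032 and 1233 against 541, 409 and 475 TPM, with controls at 538, 576 and 440 TPM (log2 difference 1.29, SE 0.12, limma adjusted p = 0.00351). IFITM3, the most abundant of the family, rose less, from 2209 ± 195 to 3295 ± 79.2 TPM (n = 3 each; 0.58, limma adjusted p = 0.0130). IFITM2 was not called, at 643, 624 and 644 against 568, 649 and 637 TPM. The family members are similar in sequence, and the sources used here do not say how reads were shared among them.

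The other called effectors were MX2, RSAD2, BST2, SAMHD1, TRIM21 and ZC3HAV1. BST2, which tethers virus particles to the cell surface, was abundant and changed little, from 746 ± 26.1 to 1033 ± 39.4 TPM (n = 3 each; log2 difference 0.47, limma adjusted p = 0.0130). MX2 and RSAD2 were low even in the NFE2L1 libraries, at 1.28 ± 0.111 and 1.11 ± 0.0838 TPM (n = 3 each). MX1, the better known relative of MX2, was at 2.30, 2.84 and 2.44 against 1.30, 1.28 and 1.75 TPM and was not called (limma adjusted p = 0.23). Of the 15 effectors, the 4 OAS genes, the 3 IFIT genes and IFITM1 were kept. The count of 15 fell to 9, 8 and 8 without NFE2L1 replicate 1, 2 or 3 and to 12, 9 and 10 without NFE2L1DC replicate 1, 2 or 3.

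**Figure D3:**
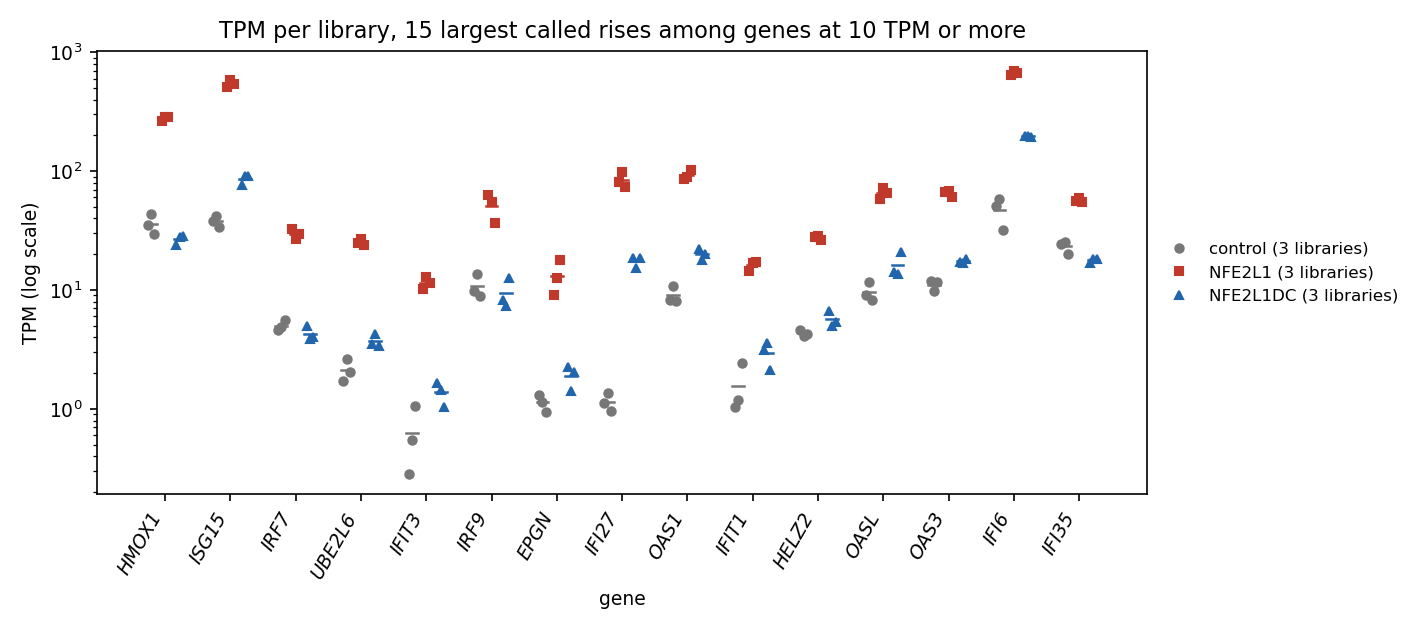
TPM per library on a log scale for the 15 protein-coding genes with the largest called rises among those at 10 TPM or more in NFE2L1 cells. Points are single libraries of the control, NFE2L1 and NFE2L1DC groups (n = 3 each) and bars their means: for every gene the 3 NFE2L1 points lie above all others, whereas the NFE2L1DC points lie above the controls for ISG15, IFI6 and IFI27, among others, and below them for HMOX1 and IFI35.

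Interferon-induced genes of other function had a median of 1.32, with 12 of 17 tested genes higher and none lower. IFI6 (ENSG00000126709, chromosome 1), an interferon-induced protein known to counter cell death, held 648, 696 and 664 TPM in NFE2L1, 197, 199 and 194 TPM in NFE2L1DC and 51.0, 57.9 and 32.1 TPM in control libraries. IFI27 was at 81.2, 97.4 and 74.2 against 18.5, 15.5 and 18.7 TPM, with controls at 1.13, 1.36 and 0.953 TPM. Both genes therefore showed 3 separate levels, with NFE2L1DC in the middle. Their log2 differences were 1.76 (SE 0.06, limma adjusted p = 2.7e-05) and 2.20 (SE 0.13, limma adjusted p = 0.000328). IFI35 had another order: 56.4, 59.0 and 55.4 TPM in NFE2L1, 17.0, 18.1 and 18.1 TPM in NFE2L1DC and 24.3, 25.5 and 20.1 TPM in controls, so that NFE2L1DC was lowest (log2 difference 1.63, SE 0.08, limma adjusted p = 0.000195). HELZ2, a helicase and coactivator, was at 27.8, 28.2 and 26.4 against 6.63, 4.995 and 5.36 TPM (log2 difference 2.10, SE 0.12, limma adjusted p = 0.000328).

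Among these 12, IFI44, IFI44L, SP100, SP110, PARP9, DTX3L, PARP10 and PLSCR1 were the others called; without IFI44L, which passed the filter only through the NFE2L1 libraries, 11 of 16 were higher. PLSCR1, a phospholipid scramblase, rose from 19.4 ± 1.61 to 45.8 ± 6.11 TPM (n = 3 each; log2 difference 1.19, limma adjusted p = 0.00672). IFI6, IFI27, IFI35, IFI44L, HELZ2, SP110 and PLSCR1 were kept. PARP9 and its partner DTX3L are neighbours read in opposite directions from overlapping ends, and both rose (1.39 and 1.17, limma adjusted p = 0.00978 and 0.00909). Since it is not given whether the counting used strand, reads in their overlap cannot be told apart. The interferon-inducible GBP1, GBP2, CMPK2, EPSTI1 and RTP4 stayed under 0.1 TPM in all 6 libraries.

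Of 8 tested nucleic acid sensors and adaptors 2 were called, both sensors of cytosolic RNA, and the median was 0.64. IFIH1 (MDA5) was at 5.17, 5.56 and 6.29 against 2.64, 1.24 and 1.61 TPM (log2 difference 1.26, SE 0.20, limma adjusted p = 0.0372). DDX58 (RIG-I) was at 1.42, 1.86 and 2.14 against 0.321, 0.349 and 0.387 TPM (1.05, limma adjusted p = 0.0332), and passed the filter only through the NFE2L1 libraries. Neither was kept: with 1 library left out, IFIH1 stayed called only without NFE2L1DC replicate 1, and DDX58 in none of the 6 fits (adjusted p up to 0.155 and 0.139). IFI16, a DNA sensor, did not pass at 11.8, 15.3 and 18.7 against 8.43, 5.22 and 7.17 TPM (1.04, limma adjusted p = 0.095). The adaptors MAVS and TMEM173 (STING) overlapped between the forms, with differences of 0.28 and 0.18.

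Class I antigen presentation showed smaller steps, with 4 of 13 tested genes higher, none lower and a median of 0.35. HLA-B was at 518, 640 and 536 against 278, 324 and 306 TPM, with controls at 241, 218 and 180 TPM (log2 difference 0.89, SE 0.10, limma adjusted p = 0.00873). HLA-C differed by 0.74 (limma adjusted p = 0.00930), TAP1, a subunit of the peptide transporter, by 0.68 (limma adjusted p = 0.00978), and ERAP1, which trims peptides, by 0.70 (limma adjusted p = 0.0415). HLA-B was kept; HLA-C was lost without NFE2L1 replicate 1 or 3, TAP1 without NFE2L1DC replicate 3 or any NFE2L1 replicate, and ERAP1 without any 1 library (adjusted p up to 0.195). HLA genes are near-identical in places, and the reads of one can be counted for another.

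B2M, the constant light chain of class I molecules, did not follow them. It held 412, 564 and 245 TPM in NFE2L1 and 202, 1127 and 990 TPM in NFE2L1DC libraries, beside 157, 179 and 207 TPM in controls. The libraries of the 2 forms overlapped, and NFE2L1DC replicate 1 lay at the control level far from its 2 partners (log2 difference -0.66, SE 0.64, limma adjusted p = 0.725). In the immunoproteasome list, PSMB9, a catalytic subunit exchanged in under interferon, was at 21.9, 26.8 and 23.6 against 11.7, 13.3 and 13.3 TPM (0.86, SE 0.11, limma adjusted p = 0.0178). PSME1, a subunit of the activating cap, was at 209, 226 and 207 against 157, 163 and 164 TPM (0.40, limma adjusted p = 0.0443). These 2 of 8 tested genes were called. PSMB9 stayed called only without NFE2L1DC replicate 1, and PSME1 in none of the 6 fits (adjusted p up to 0.167). PSMB8, the neighbour of PSMB9, did not pass (0.66, limma adjusted p = 0.0839), and PSMB9 overlaps TAP1 on the opposite strand.

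Of 12 tested inflammatory genes 3 were higher and none lower, with a median of 0.28. CXCL2, a chemokine that attracts neutrophils, was at 8.07, 5.60 and 8.49 against 1.22, 1.27 and 1.11 TPM, with controls at 1.05, 0.458 and 1.49 TPM (log2 difference 1.91, SE 0.17, limma adjusted p = 0.00338). CXCL3 was at 5.48, 4.47 and 4.58 against 0.537, 0.818 and 0.838 TPM (1.76, SE 0.15, limma adjusted p = 0.00329). Both were kept. IL6 was at 1.73, 1.96 and 1.5 against 0.517, 0.492 and 0.252 TPM (0.94, limma adjusted p = 0.0497) and was lost whichever library was left out. CXCL3 and IL6 passed the filter only through the NFE2L1 libraries, and without them 1 of 10 inflammatory genes was higher. CCL5, at 17.2, 30.1 and 36.7 against 5.21, 7.03 and 11.1 TPM, did not overlap but did not pass (1.72, SE 0.32, limma adjusted p = 0.0752). The NF-kB feedback genes NFKBIA and TNFAIP3 overlapped, at differences of -0.02 and -0.07, and TNF was listed at 0 in all 6 libraries.

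Of 11 tested complement genes 3 were higher, none lower, and the median was 0.26. C1S, a protease of the first component, was at 44.7, 40.2 and 29.04 against 12.0, 11.6 and 15.5 TPM, with controls at 10.6, 13.5 and 11.3 TPM (log2 difference 1.46, SE 0.18, limma adjusted p = 0.0130). CFB, of the alternative pathway, was at 18.4, 23.1 and 21.2 against 12.1, 10.3 and 11.3 TPM (0.84, limma adjusted p = 0.0275). C4B (0.78, limma adjusted p = 0.0495) has a near-identical copy, C4A, which was not called (0.13), so the split between them is uncertain. None of the 3 was kept: C1S was lost without NFE2L1DC replicate 1 or 2 or NFE2L1 replicate 1 or 2, CFB without any library but NFE2L1DC replicate 1, and C4B without any 1 library, with adjusted p up to 0.199.

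Genes known to answer ERK signalling lay mostly above, with few calls. Of 21 tested 3 were higher, none was lower, and the median was 0.40. The NFE2L1 libraries all lay above the NFE2L1DC libraries in 17 of the 21 and below in none, beside 12.6% of all tested genes lying above. DUSP4, a phosphatase that switches ERK off, was at 16.4, 15.2 and 16.2 against 7.49, 6.38 and 7.49 TPM, with controls at 0.812, 0.681 and 1.07 TPM (log2 difference 1.06, SE 0.11, limma adjusted p = 0.00679). ETV4, an ETS transcription factor, was at 64.8, 57.5 and 66.6 against 39.2, 28.8 and 35.9 TPM, with controls at 10.3, 7.70 and 7.92 TPM (0.85, SE 0.13, limma adjusted p = 0.0314). In both genes each form lay above the controls and the full-length form above NFE2L1DC. PHLDA1 was at 2.43 ± 0.0635 against 0.885 ± 0.188 TPM (n = 3 each; 0.87, limma adjusted p = 0.0443). DUSP4 was kept, ETV4 stayed called only without NFE2L1DC replicate 1, and PHLDA1 in none of the 6 fits (adjusted p up to 0.183). SPRY2, FOSL1 and ETV5 did not pass at 0.62, 0.81 and 0.86 (limma adjusted p = 0.051, 0.0648 and 0.121).

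Smaller numbers were called in 5 further lists. JUN, an AP-1 subunit, was at 6.81, 7.42 and 6.71 against 3.01, 3.06 and 2.44 TPM (log2 difference 1.06, SE 0.13, limma adjusted p = 0.0123), the 1 called of 18 immediate early genes. TAGLN, an actin-binding protein, at 0.58 (limma adjusted p = 0.0363) was among the 2 called of 20 YAP, TGF-beta and SRF targets. CA9, the hypoxia-induced carbonic anhydrase, held 114, 117 and 115 TPM in NFE2L1, 70.8, 59.6 and 72.4 TPM in NFE2L1DC and 224, 243 and 202 TPM in control libraries. Both forms were thus below the controls, NFE2L1DC more so (0.77, SE 0.09, limma adjusted p = 0.0120). CA9 was the 1 called of 20 hypoxia-responsive genes, whose median was 0.36. In 11 of the 20 the NFE2L1 libraries all lay above the NFE2L1DC libraries, and in 1 all below. Over all tested genes these shares were 12.6% and 5.57%. SLC2A1, a glucose transporter, was the 1 called of 23 glycolytic genes, at 138, 139 and 144 against 105, 106 and 108 TPM (0.39, limma adjusted p = 0.0409). None of these 4 genes was kept. JUN and CA9 were lost without any 1 NFE2L1 replicate (adjusted p up to 0.0668 and 0.0604), and TAGLN and SLC2A1 were lost without any 1 library (adjusted p up to 0.145 and 0.208). HPD, an enzyme of tyrosine breakdown, was the 1 called of 5 tested hepatocyte genes and was lower.

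The 45 higher genes in no list included several at high abundance and others, such as EPGN and ARNT2, at lower levels. Those given here were named after their values were seen. EIF2S1, the alpha subunit of translation factor eIF2, was at 78.6, 76.9 and 78.5 against 39.8, 34.4 and 35.8 TPM, with controls at 40.8, 44.5 and 52.7 TPM (log2 difference 1.07, SE 0.08, limma adjusted p = 0.00209). NFE2L1DC libraries all lay below the controls and NFE2L1 libraries above. The linker histone gene H1F0 had the same order, 230 ± 6.01, 134 ± 5.64 and 193 ± 13.0 TPM in NFE2L1, NFE2L1DC and control libraries (n = 3 each; 0.77, SE 0.06, limma adjusted p = 0.00328). EPGN, a ligand of the EGF receptor, was at 9.02, 12.7 and 17.8 against 2.27, 1.41 and 2.05 TPM (2.25, SE 0.24, limma adjusted p = 0.00834). The lysosomal protease gene CTSL was at 284, 302 and 293 against 182, 170 and 181 TPM (0.72, limma adjusted p = 0.00338), and the adhesion receptor CD44 at 236, 236 and 258 against 157, 161 and 158 TPM (0.61, limma adjusted p = 0.00834). RARRES3 (1.34), ARNT2 (1.26) and SERPINE2 (1.03) rose as well (limma adjusted p = 0.00545, 0.00378 and 0.00674). These 8 genes were kept.

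IGFBP3, which binds insulin-like growth factors, resembled CA9: it held 107, 102 and 117 TPM in NFE2L1, 71.7, 66.3 and 68.5 TPM in NFE2L1DC and 148, 185 and 170 TPM in controls (log2 difference 0.65, limma adjusted p = 0.0130), with the call lost without NFE2L1DC replicate 2 or 3 or NFE2L1 replicate 1 or 3. Transcripts that overlap a stronger gene are uncertain, and AL445490.1 and ISY1-RAB43 passed the filter only through the NFE2L1 libraries. AL445490.1 runs antisense to IFI6, AL662797.3 antisense to the tubulin gene TUBB, and ISY1-RAB43 is a readthrough of ISY1 and RAB43. In all, 29 of the 116 called genes overlapped another gene at 20% or more of their own level.

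Just 11 genes were lower with the full-length form. TRIM16 (ENSG00000221926, chromosome 17 at 15627960 to 15684311, GRCh38), a ubiquitin ligase of the tripartite motif family, was at 49.4, 45.9 and 53.7 TPM in NFE2L1, 115, 105 and 97.3 TPM in NFE2L1DC and 69.3, 63.7 and 102 TPM in control libraries. The NFE2L1 libraries were below the controls and the NFE2L1DC libraries overlapped them (log2 difference -1.08, SE 0.09, limma adjusted p = 0.00338). It was the 1 lower gene that was kept. RAB40C, a small GTPase of a ubiquitin ligase complex, was at 8.30, 9.67 and 7.20 against 17.1, 22.1 and 21.3 TPM, with controls at 30.1, 20.2 and 19.6 TPM (-1.17, SE 0.14, limma adjusted p = 0.0130). FN3KRP, a kinase that repairs sugar-modified proteins, was at 31.1, 19.97 and 19.6 against 48.2, 55.5 and 53.7 TPM, with controls at 45.5, 50.4 and 38.6 TPM (-1.15, SE 0.18, limma adjusted p = 0.0356). TNNC1, a troponin subunit, was at 8.92, 10.1 and 12.8 against 19.8, 22.9 and 20.8 TPM, with controls at 21.1, 22.4 and 16.2 TPM (-0.94, SE 0.14, limma adjusted p = 0.0324). In these 3 genes the NFE2L1DC libraries overlapped the controls and the full-length libraries all lay below them.

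HPD was at 289, 305 and 293 against 395, 446 and 436 TPM, with controls at 560, 585 and 484 TPM (log2 difference -0.52, SE 0.07, limma adjusted p = 0.0164). PINK1, the kinase that marks damaged mitochondria, was at 33.8, 33.9 and 32.9 against 47.4, 46.5 and 47.2 TPM, with controls at 61.6, 57.2 and 51.2 TPM (-0.48, SE 0.07, limma adjusted p = 0.0354). Both genes were below the controls in both forms, and further with full-length NFE2L1. LAMTOR5, a subunit of the lysosomal scaffold for mTORC1, ran otherwise: at 89.0, 96.2 and 102 against 152, 137 and 141 TPM with controls at 97.5, 95.2 and 90.7 TPM, it was NFE2L1DC that stood apart (-0.58, SE 0.08, limma adjusted p = 0.0209). NT5DC2 (-0.54, limma adjusted p = 0.0130) and MTCH1 (-0.37, limma adjusted p = 0.0443) completed the genes above 10 TPM. SORBS2 (-1.36, limma adjusted p = 0.0161) was lower at 1.78 ± 0.436 against 6.12 ± 1.07 TPM (n = 3 each), and the small nucleolar RNA SNORA2C, which lies within KANSL2, at under 2 TPM. With 1 library left out, the 10 lower genes other than TRIM16 were called in 0 to 2 of 6 fits, with adjusted p of up to 0.218.

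**Figure D4:**
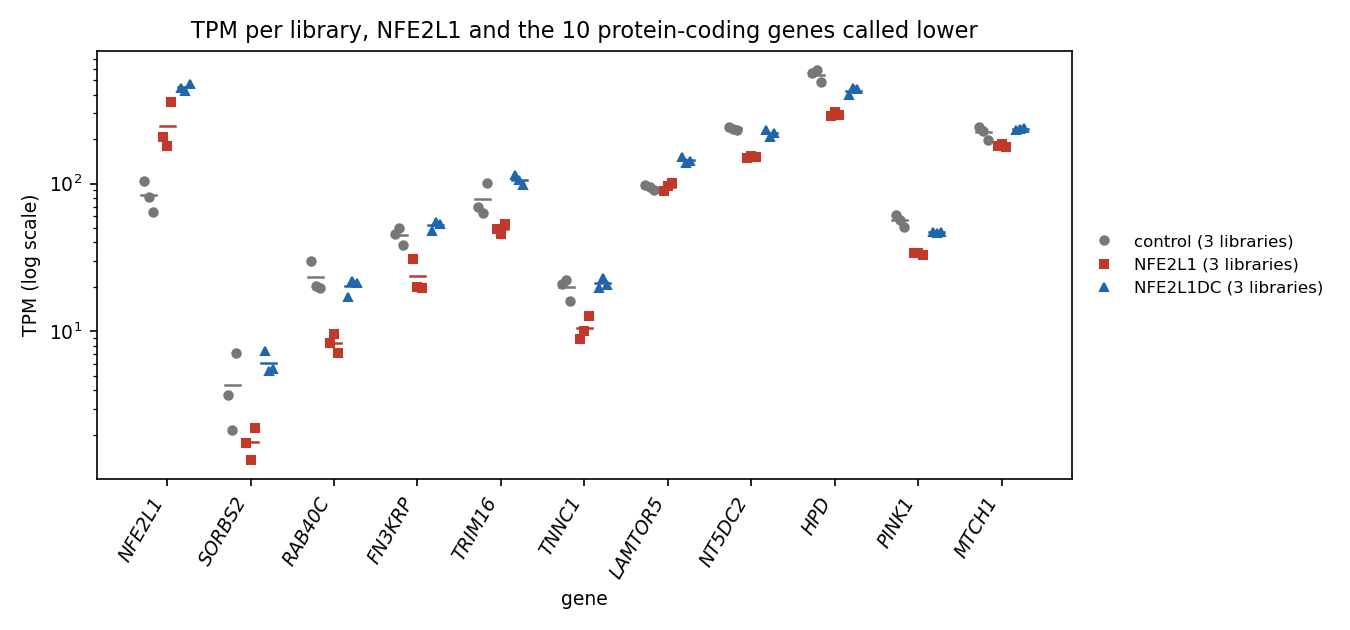
TPM per library on a log scale for NFE2L1 and the 10 protein-coding genes that were lower in NFE2L1 than in NFE2L1DC cells, with the control libraries beside them. Each point is 1 library (n = 3 per group), bars are means, and the NFE2L1 points lie below the NFE2L1DC points for every gene. Examples are TRIM16 at means of 49.6 against 106 TPM and MTCH1 at 181 against 234 TPM.

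Where the control libraries lay is given as a description, without a test. The shares among all tested genes were not computed. Calling genes as higher in NFE2L1 also favours NFE2L1 libraries above the controls in advance, and calling them lower favours the reverse. In 98 of the 105 higher genes the NFE2L1 libraries all lay above the controls. NFE2L1DC libraries all lay above the controls in 43 of the 105, overlapped them in 46 and all lay below in 16. Full-length above and NFE2L1DC below the controls was seen in 10 genes, HMOX1, IFI35, CBR1, EIF2S1, HTRA3, TYMP, SECTM1, ACTG2, H1F0 and TGFBI. In CA9 and IGFBP3 both forms lay below. Of the 11 lower genes, NFE2L1 lay below the controls in 8 and overlapped them in 3.

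Some called genes lay near each other. Taking called genes within 500 kb of the next, 39 of the 116 fell into 17 runs, 16 of them in 1 direction; the share among all tested genes was not computed, so this is a description. OAS1, OAS3 and OAS2 (chromosome 12, 112906777 to 113011723, GRCh38) were the 3 genes tested in their span and all rose. IFIT2, IFIT3 and IFIT1 (chromosome 10, 89283694 to 89406486) rose, and they overlap LIPA on the opposite strand. IFITM1, IFITM3, PTDSS2 and IRF7 stood within 15 tested genes on chromosome 11. TNNC1 and NT5DC2 on chromosome 3 were both lower. SECTM1 (higher) and FN3KRP (lower) on chromosome 17 were the run of mixed direction. Several runs hold related genes that arose by duplication, and several hold genes that were not called.

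Many programmes gave no call. With 0.847% of all tested genes called, this is near the overall share for a single list. It does not show that the forms were alike. In 18 lists with 364 tested members, no gene passed in limma. ATF4 targets (25 tested, median 0.11), endoplasmic reticulum folding genes (22, 0.17), heat shock and chaperone genes (22, 0.05), cholesterol synthesis genes (25, -0.02), fatty acid genes (17, 0.04), p53 targets (20, -0.02), AMPK genes (11, 0.10) and cell cycle genes (32, 0.06) were among them. Among 23 collagen, integrin and matrix genes with a median of 0.21, FN1, fibronectin, came nearest at 78.2, 80.1 and 82.1 against 59.6, 50.3 and 58.1 TPM (log2 difference 0.51, limma adjusted p = 0.054). GDF15, a stress-induced cytokine, was at 116, 114 and 110 against 87.6, 83.3 and 89.0 TPM (0.39, limma adjusted p = 0.0616). The 60 ribosomal protein genes had a median of -0.03, and the 13 mitochondrially encoded genes ranged from -0.19 to -0.05, all under 0 and none called. Across all tested genes 1582 had an unadjusted p under 0.05.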

How the data were processed

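RNA was sequenced from 9 libraries of cells labelled HepG2; the 6 libraries of the overexpressing lines were compared and the 3 controls served as a reference level. The authors deposited 1 table of TPM values; per the submitters' processing notes CASAVA and GRCh38 were used, and the sources used here do not give the aligner, quantifier, annotation release or strandedness. The values were not whole numbers, TPM keeps no depth, and no counting interval can be given. Symbols, biotypes and coordinates came from GENCODE 29, which matched 57836 of 58174 gene identifiers; promoters came from RefSeq (GRCh38.p14).

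Genes with at least 1 TPM in 3 or more of the 6 libraries were tested on log2(TPM + 1) with limma 3.58.1 (trend; R 4.3.3), 2-sided, Benjamini-Hochberg adjusted over 13689 genes, called under 0.05. Differences of genes around or below 1 TPM are understated on this scale. A fold is the ratio of 2 group means in TPM. Of the called genes, 12 reached 1 TPM only in NFE2L1 libraries and 1 only in NFE2L1DC libraries. The procedure was also run on simulated libraries with independent noise, and the outcome is not given here. Sequence searches, ranges and figures used Python 3.11.15.

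The comparison and the 36 gene lists (754 of 755 symbols found) were chosen with earlier results of these data known. Named genes were NFE2L1, its relatives and partners and HMOX1, the 15 highest and 15 lowest called differences among protein-coding genes at 10 TPM or more in the higher group without overlap between the forms, the 10 smallest p-values among these, and up to 4 called members of each list, or its most abundant member. The lowest set held 9 genes. Other genes were named after their values were seen. Some genes that enter the counts are not reported here by name. Alternatives covered the pseudocount, filter, scaling, libraries in the fit, trend, replicate block, GC and length correction and leaving out each library.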

Additional observations from a re-analysis of the deposited data

How the results depend on the processing

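Against 116 called genes (105 higher, 11 lower), 17 alternatives were run. The pseudocounts 0.1 and 5, the filter on a mean of 5 TPM, median-of-ratios scaling, removal of mitochondrially encoded genes, the fit to all 9 libraries, the fit without trend and the GC and length correction gave 89 to 133. Without a filter 53 were called (48 higher, 5 lower), and without trend 4 lower. Leaving out 1 library gave 47 to 116 calls, 44 to 107 higher and 3 to 9 lower. Replicate numbers did not pair the libraries (correlations of same-numbered deviations -0.076 to -0.021, and no library correlated best with its own number); the replicate block gave 37 calls (36 higher, 1 lower), and with the GC and length correction 32 (32 higher, 0 lower). In every alternative that tested them, 23 genes stayed called, all higher, among them HMOX1, OAS2, ISG15, IRF7, UBE2L6, IFIT3, IFI27, OAS1, IFIT1, HELZ2, IFIT2, OASL, CXCL2, OAS3, IFI6, CXCL3, IFI35, RARRES3, IFITM1, ARNT2, EIF2S1 and H1F0. Interferon-linked genes called higher numbered 43 and ranged from 20 (replicate block) to 43. Across 11289 protein-coding genes, differences ran with GC content at a Spearman rho of -0.242 (genes are not independent). Depth is unknown.

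No called gene changed direction, and 11 genes that were not called did so, with limma adjusted p between 0.707 and 0.999. Median-of-ratios scaling gave -0.05 for VCP, -0.01 for PSMB4 and CDC20, -0.03 for HSP90AB1 and -0.00 for KRT8, and removal of mitochondrially encoded genes -0.01 for VCP. The GC and length correction gave 0.05 for KEAP1 and 0.03 for FDPS, alone and with the replicate block. Leaving out 1 library, the differences ranged from -0.28 to 0.10 for NFE2, -0.06 to 0.03 for KEAP1, -0.07 to 0.65 for MAFF, -0.52 to 0.49 for MAFG, -0.05 to 0.08 for VCP, -0.03 to 0.08 for HSP90AB1, -0.14 to 0.38 for PRKAG1 and -0.06 to 0.01 for FDPS. The cause was not tested.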

Other observations

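Some transcripts outside the comparisons read higher in the NFE2L1 libraries but missed the filter of 1 TPM in 3 libraries, and are given as values without a test. DHX58, the third RNA sensor of the RIG-I family, was at 0.913, 0.660 and 0.719 TPM with full-length NFE2L1 and at 0.232, 0.122 and 0.183 TPM with NFE2L1DC. TRIM22, an interferon-induced ubiquitin ligase, was at 0.239, 0.476 and 0.562 against 0, 0.0358 and 0.0321 TPM. SAMD9L was at 0.225, 0.222 and 0.358 against 0.0268, 0.0549 and 0.0382 TPM, and XAF1 at 0.279, 0.0877 and 0.203 TPM against 0 in all 3 NFE2L1DC libraries. CXCL8, a neutrophil chemokine, was at 0.505, 0.213 and 0.617 TPM against 0 in all 3. These genes were chosen after their values were seen, and all stayed under 1 TPM.

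TIMP2, an inhibitor of matrix proteases, scattered within both groups, at 180, 58.5 and 205 TPM in NFE2L1 and 48.9, 201 and 220 TPM in NFE2L1DC libraries. Like B2M, it was low in NFE2L1DC replicate 1 and high in NFE2L1DC replicates 2 and 3, and it was not called (limma adjusted p = 0.999).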
